A study of Drosophila melanogaster with 4 samples.

Results

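The X chromosome held 2065 of the 11598 JHDM1 clusters in the list that the authors made from both ChIP replicates together, called the combined list here. A cluster is a region of significant ChIP enrichment, given with its first base, its last base and 1 score, and the members are all clusters placed on the assembled X sequence. Every group came from wild-type Oregon-R embryos of Drosophila melanogaster at 14 to 16 h of development. The samples are 2 chromatin immunoprecipitations (ChIP) with antibody Q2634 against JHDM1 and 2 inputs, the chromatin before precipitation, for which no list was analysed here. Whole embryos mix many tissues, and the labels give neither the sex of the embryos nor whether the replicates came from separate collections, so the spread between replicates may be technical. The lists hold no read counts, so the depth behind a cluster is unknown.

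JHDM1, also named KDM2, is a histone demethylase with a JmjC domain that acts on methylated lysine 36 of histone H3, and it carries a CXXC zinc finger, a domain that in mammals binds CpG-rich DNA. In flies it also works with Polycomb group proteins in a complex that ubiquitylates histone H2A. The X chromosome differs from the autosomes in that males carry a single copy, whose transcription is raised by the dosage compensation complex, and that complex spreads over active genes marked by methylated lysine 36 of histone H3. The assembled X sequence is counted from the telomere towards the centromere.

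The X held 814 clusters in ChIP replicate 1 and 820 in ChIP replicate 2, on average 817 ± 4.24 (SD, n = 2). X clusters covered 7.32% of the X sequence in replicate 1 and 7.40% in replicate 2, and those of the combined list covered 18.8%, or 4.21 of 22.4 Mb. The combined list therefore held 2.53 times as many X clusters as the mean replicate list, against 2.37 times on 2L, 2.42 times on 3L and 2.41 times on 3R. The first combined cluster, X:29340-30770, and the last, X:22416186-22417298, were found in neither replicate list. In replicate 2 the last cluster ended at base 22416172, close to the last base of the sequence, and in replicate 1 at base 22060278.

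In the combined list, clusters on X were denser than on 2L and sparser than on 3R, while the difference from 3L did not pass the test. X held 92.1 clusters per Mb, against 82.0 on 2L, 90.8 on 3L and 101.3 on 3R. The ratio of X to 2L was 1.12, with an adjusted p of 0.00101 in the two-sided exact binomial test against assembled length, and that of X to 3R was 0.909, with an adjusted p of 0.00188 in the same exact test. X and 3L had a ratio of 1.01 and an adjusted p of 0.877, and X and the 3 autosomal arms as one had a ratio of 1.00 with an adjusted p of 0.970. These p-values were adjusted over 4 comparisons and are too small, since clusters next to each other do not count as independent. Counts in 1 Mb bins had a variance of 5.03 times their mean on X, 8.11 on 2L and 4.74 on 3R. Independent placement would give a variance near the mean. The exact tests do not cover this unevenness, so they cannot show that the differences in density exceed it.

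The replicate lists placed X lower against the autosomal arms than the combined list did. X had 36.3 clusters per Mb in replicate 1 and 36.6 in replicate 2, on average 36.4 ± 0.189 (SD, n = 2), against 34.5 ± 0.184 on 2L, 37.6 ± 0.259 on 3L and 42.0 ± 0.380 on 3R. Against 3R, X was lower in both lists, with a ratio of 0.870 in replicate 1 (adjusted p = 0.00904, exact binomial test) and 0.865 in replicate 2 (adjusted p = 0.00559, exact binomial test). Against 2L, X was higher by more than the spread between replicates, but its ratios of 1.05 and 1.06 passed in neither list (adjusted p = 0.493 and 0.309 in the exact test). Against the 3 arms together, X had ratios of 0.951 and 0.952, which also passed in neither (adjusted p = 0.421 and 0.309, exact test). In the combined list the difference from 3R did not pass without the first and last 1 Mb of each arm, at a ratio of 0.936 (adjusted p = 0.0571, exact test), or without the 3 Mb on the centromere side, at 0.954 (adjusted p = 0.246, exact test). Keeping only clusters that score above the list's median turned the ratio of X to 3R to 1.56. That cut keeps 75.0% of the clusters on X and 43.6% of those on 3R, so this ratio restates the difference in scores.

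**Figure D1:**
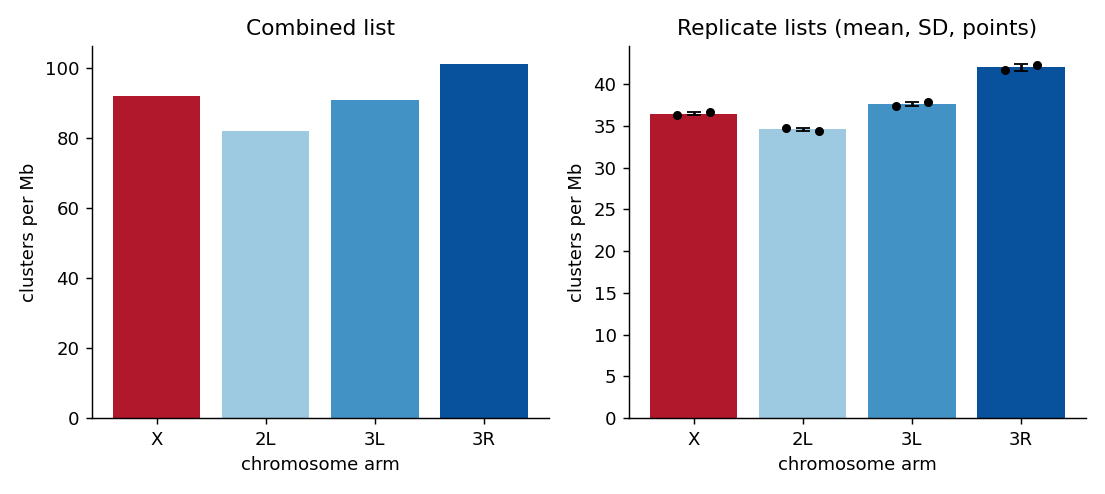
Clusters per Mb of assembled sequence on X, 2L, 3L and 3R, in the combined list (left) and in the replicate lists (right, bars for the mean, error bars for the SD, points for replicates 1 and 2). X stands above 2L and below 3R in both panels, at 92.1 clusters per Mb in the combined list and 36.4 ± 0.189 in the replicate lists.

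Along X, the fullest 1 Mb bins of the combined list were the second and the third from the telomere, and clusters were scarce after 20 Mb. Of the segments of 5 Mb, that from 15 to 20 Mb was the densest, with 111.0 combined clusters per Mb, against 98.6 in the first segment. Replicate 1 had 44.8 and 39.0 per Mb in these segments, and replicate 2 had 42.0 and 41.4. The 22 full bins of 1 Mb held 93.2 ± 21.7 combined clusters (SD over bins), with a minimum of 59 and a maximum of 143. The bin X:1000001-2000000 had the most, with 143 combined clusters, 64 in replicate 1 and 62 in replicate 2, and combined clusters covered 36.1% of its bases. The bins X:2000001-3000000 and X:19000001-20000000 followed. The first of them held 122 combined clusters, with 48 in replicate 1 and 52 in replicate 2, and the second held 114, with 57 and 58 in the replicates.

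The sparsest full bins were X:21000001-22000000 with 59 combined clusters, X:12000001-13000000 with 64 and X:20000001-21000000 with 67. Those near the centromere side were also the poorest in replicate clusters, with 17 and 22 in the bin from 21 Mb and 14 and 17 in the bin from 20 Mb. The bin from 12 Mb had 32 clusters in replicate 1 and 26 in replicate 2, against bin medians of 36 and 37. From base 20000001 to the end of the sequence, the density was 57.8 combined clusters per Mb, against 84.4 to 111.0 in the 4 segments of 5 Mb before it. The replicates had 15.5 ± 3.21 clusters per Mb there (SD, n = 2) and 35.5 ± 4.38 to 43.4 ± 1.98 in the other segments.

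**Figure D2:**
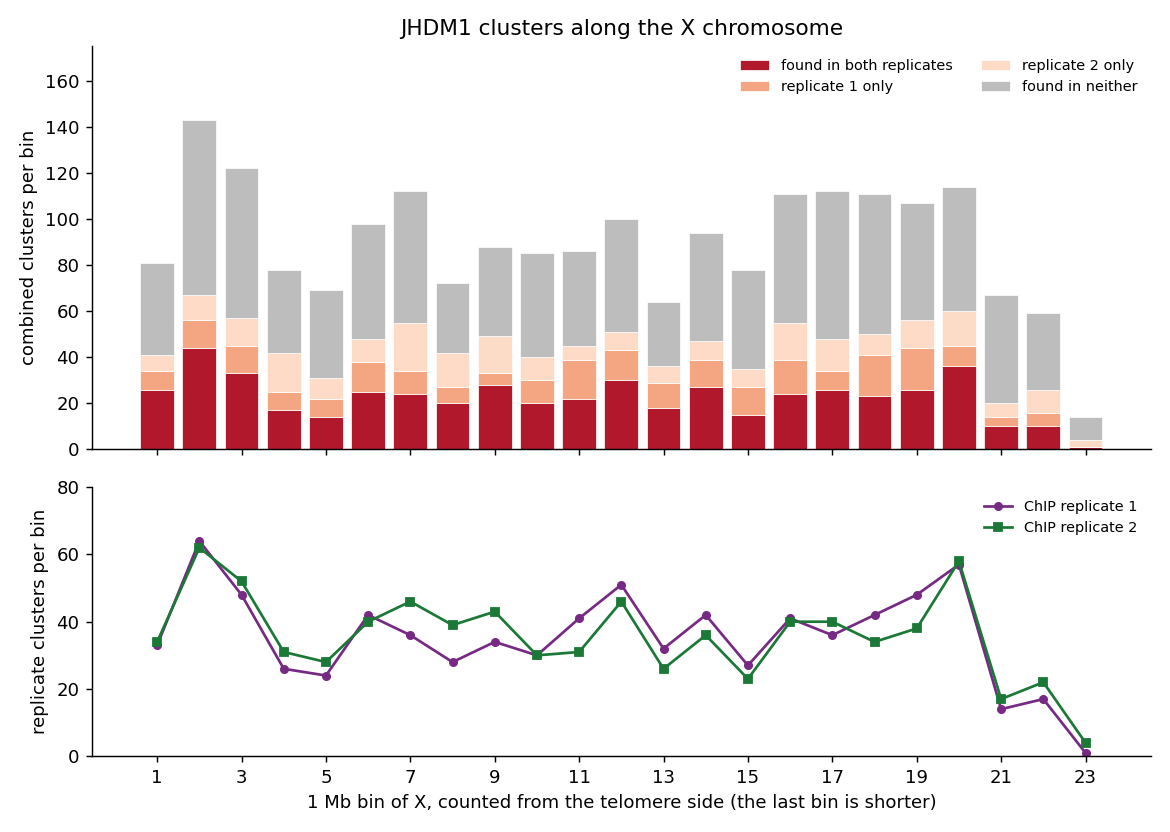
Clusters in 1 Mb bins of X, counted from the telomere side, in the combined list coloured by the replicates that held them (top) and in each replicate list (bottom). Bin 2 is the highest with 143 combined clusters, and bins 21 and 22 hold 67 and 59, and the lines of both replicates have their 2 highest points in bins 2 and 20.

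The replicates agreed in outline along X but not everywhere. Across the 22 full bins, Pearson's r between their counts was 0.867 and Spearman's rho was 0.802, a description of bins from the same pair of samples. Between 5 and 10 Mb, replicate 1 had 170 clusters and replicate 2 had 198, while between 10 and 15 Mb replicate 1 had 193 and replicate 2 had 162. Combined clusters found in replicate 1 only numbered 45 in the first of these segments and 65 in the second, and those found in replicate 2 only numbered 72 and 37. The variance of the bin counts on X was 5.03 times their mean in the combined list, against 8.11 on 2L, 9.12 on 3L and 4.74 on 3R.

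As on the autosomal arms, most X clusters had a near neighbour, with a few long empty stretches between groups. The median gap between the end of one combined cluster and the start of the next was 3308.5 bases, with quartiles of 1013.2 and 9233.5 bases, and the mean of 8807.8 bases was 2.66 times the median. Of 2064 gaps, 512 (24.8%) were shorter than 1000 bases, 78 were shorter than 100 bases, and 63 (3.05%) were longer than 50 kb. The 3 autosomal arms together were close to this, with 23.4% of gaps under 1000 bases and 2.55% over 50 kb. Their mean gap was 2.58 times the median. The median gap on X lay between those of 3R, with 3160 bases, and 3L, with 3444.5 bases, while 2L had 3790 bases.

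In the replicate lists the X clusters stood further apart, as their lower number requires. The median gap on X was 10891 bases in replicate 1 and 10402 in replicate 2, on average 10646.5 ± 345.8 bases (SD, n = 2). On 2L it was 13373 and 11914 bases. The gaps on 3L were 12243 and 10600 bases and those on 3R 10994 and 9902 bases. X thus overlapped the range of both these arms and lay below that of 2L. Within each replicate, X had a smaller median gap than 2L and 3L. Against 3R it was smaller in replicate 1 and larger in replicate 2. With 2 replicates, no exact test over samples can go below a two-sided p of 0.5, and none was run on gaps or widths.

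The longest gap of the combined list on X was X:21610173-21846046, of 235.9 kb, and the next was X:20662544-20817914, of 155.4 kb. Both lie on the centromere side and held 0 clusters in either replicate. Further gaps of 135.4 kb at X:9257611-9393014, 129.1 kb at X:11058343-11187400 and 121.8 kb at X:245270-367044 lay within the rest of the chromosome. Of the 5, only the gap from 9257611 had a replicate cluster inside, 1 in replicate 1 and 0 in replicate 2. The longest stretch without a cluster in replicate 1 was X:21342702-21857664, of 515.0 kb, where replicate 2 had 6 clusters and the combined list 21. In replicate 2 it was X:22103620-22414241, of 310.6 kb, with 0 clusters of replicate 1 and 10 of the combined list.

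**Figure D3:**
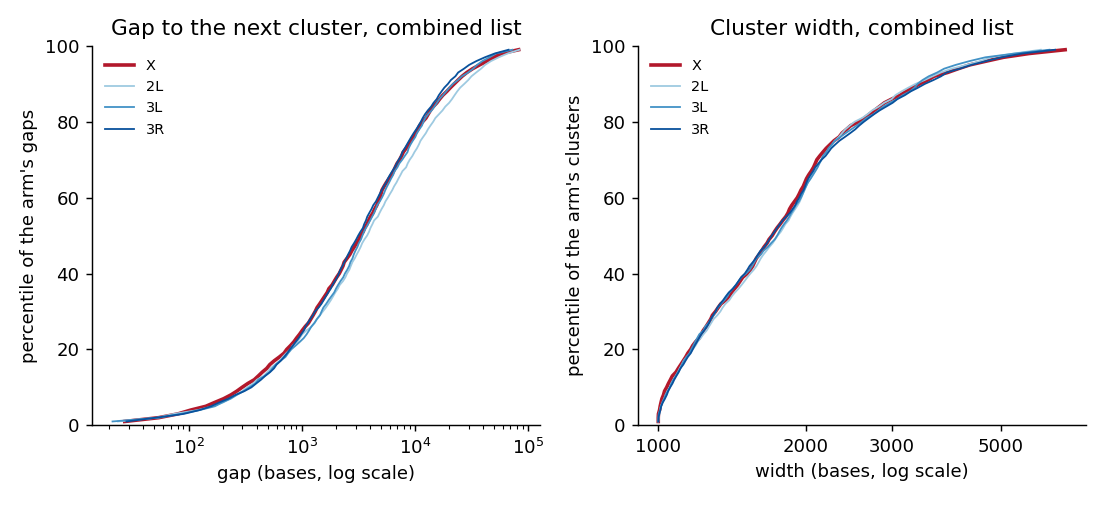
Percentiles of the gap to the next cluster (left) and of cluster width (right) on X, 2L, 3L and 3R in the combined list, in bases on log axes. The curves of X run close to those of the autosomal arms, with medians of 3308.5 bases for the gap and 1709 bases for the width on X.

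In the combined list, the median width of X clusters lay within the range of the autosomal arms, while in each replicate list it was the smallest of the 4 arms. The median width in the combined list was 1709 bases on X, with quartiles of 1237 and 2285, against 1753.5 bases on 2L, 1750 bases on 3L and 1705.5 bases on 3R. Clusters under 1301 bases, the smallest width in the replicate lists, made up 29.6% of those on X and 29.0% of those on the 3 arms. The replicate lists had median widths on X of 1935.5 and 1914 bases, on average 1924.8 ± 15.2 bases (SD, n = 2), against 1962.2 ± 30.8 bases on 2L, 1938.5 ± 6.36 on 3L and 1946 ± 36.8 on 3R, so the range of X overlapped those of 3L and 3R and lay below that of 2L.

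Among wide clusters, X had a share close to that of 3R in the combined list and fewer than the 3 arms in the replicate lists. Of the combined clusters, 67 on X (3.24%, 95% interval 2.52 to 4.10%) and 185 on the 3 arms (2.66%, 2.30 to 3.07%) spanned 5000 bases or more. On 3R alone the share was 3.08% (2.47 to 3.78%). Replicate 1 had 3 such clusters on X (0.369%, 0.0761 to 1.07%) and 27 on the 3 arms (0.937%, 0.618 to 1.36%). Replicate 2 had 3 on X (0.366%, 0.0755 to 1.07%) and 33 on the 3 arms (1.14%, 0.785 to 1.59%). Both replicates had a lower share on X than either had on any of the 3 arms, where the shares ran from 0.763 to 1.26%. The counting intervals overlap, and this difference was not tested.

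Most of the widest X clusters of the combined list held several clusters of each replicate, which covered only part of them. The widest, X:2186088-2202658, spanned 16571 bases and held 3 clusters of replicate 1 and 5 of replicate 2, which covered 55.2% and 61.1% of it. At X:19380051-19393872, of 13822 bases, there were 5 clusters of replicate 1 over 71.5% and 3 of replicate 2 over 45.7% of the region. The cluster X:18540350-18553006, of 12657 bases, held 2 clusters of each replicate, over 34.2% and 52.4% of it. X:1856543-1868183, of 11641 bases, also held 2 of each, over 46.7% and 72.2% of it. At X:1972575-1985013, of 12439 bases, 2 clusters of replicate 1 covered 39.4% and 1 of replicate 2 covered 28.0%.

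These 5 regions scored between 0.610 and 0.650 in the combined list, above the X median of 0.493 but far from its highest scores. Over all 67 wide X clusters, 32 (47.8%) held at least 2 clusters of replicate 1 and also 32 at least 2 of replicate 2, against 37.3% and 38.9% of the 185 on the 3 arms. Only 3 of the 67 (4.48%) met a cluster of 5000 bases or more in replicate 1, and 3 in replicate 2, against 14.6% and 17.3% on the 3 arms. No X cluster of a replicate list was wider than 5892 bases, while the autosomal arms reached 16309 bases.

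About 1 in 4 X clusters was found in both replicates, where found means an overlap of at least 1 base. These were 519 of 2065, or 25.1% (95% interval 23.3 to 27.1%), against 27.7% over the whole combined list. A further 236 (11.4%) were found in replicate 1 only and 250 (12.1%) in replicate 2 only, against 11.7% and 11.6% on the 3 autosomal arms. The other 1060, or 51.3% (49.2 to 53.5%), were found in neither, against 49.5% over the whole list. In all, 755 X clusters (36.6%) met a cluster of replicate 1, against 39% over the whole list, and 769 (37.2%) one of replicate 2, against 39.1%. Since both lists come from the same 2 ChIP samples, this overlap is a description.

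X clusters were found in both replicates less often than those of the 3 autosomal arms together. This difference did not pass under every alternative. The share was 25.1% on X and 28.0% on the arms, a difference of -2.91 percentage points, with an adjusted p of 0.0250 in the two-sided Fisher's exact test. It was 28.5% on 2L and 28.1% on 3R, each with an adjusted p of 0.0250 in the exact test. On 3L it was 27.5%, which did not pass (adjusted p = 0.0831, exact test). The direction was the same under each alternative run, but the calls were not. Joining clusters closer than 500 bases gave 28.9% on X and 31.3% on the arms (adjusted p = 0.141, exact test), and leaving out 3 Mb on the centromere side gave 25.6% and 28.2% (adjusted p = 0.0775, exact test). In replicate 2 alone, 37.2% of X clusters and 39.6% of those on the arms were found (adjusted p = 0.105, exact test). With the other replicate alone the shares were 36.6% and 39.7%, which passed (adjusted p = 0.0257, exact test). All p-values of these tests are too small, since neighbouring clusters are not independent.

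Support followed width on X as on the autosomal arms. None of the 612 X clusters narrower than 1301 bases was found in both replicates (95% interval 0 to 0.601%), and none of the 2013 on the 3 arms was. The replicate lists hold no cluster this narrow, and an overlap of 1 base is easier to reach for a wide cluster. Part of the trend with width is therefore set by the lists and the overlap rule. From 1301 to 1999 bases the share was 6.56% on X and 7.91% on the arms. Between 2000 and 2999 bases it was 55.4% on X (95% interval 50.6 to 60.0%) and 62.8% on the arms (60.3 to 65.2%). From 3000 to 4999 bases X had 75.1% and the arms 73.7%, and at 5000 bases or more X had 86.6% (76.0 to 93.7%) and the arms 94.1% (89.6 to 97.0%). The interval of X lay below that of the arms only in the class of 2000 to 2999 bases.

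In the upper score classes of the whole combined list, a smaller share of the X clusters was found in both replicates. The combined list was divided by score into 4 classes of equal size, on a scale the authors do not state. In the highest class, with scores above 0.506, 413 of 890 X clusters were found in both replicates, or 46.4% (95% interval 43.1 to 49.7%), against 84.2% (82.1 to 86.1%) on the 3 arms. In that class 345 X clusters, or 38.8%, were found in neither, against 11.6% on the arms. The third class had 9.71% (7.56 to 12.2%) on X and 25.0% (22.9 to 27.2%) on the arms. In the lowest class the shares were 9.58% and 7.93%, with overlapping intervals. Of all clusters scoring above the list's median, 477 of 1549 on X (30.8%) and 1560 of 3006 on the arms (51.9%) were found in both (adjusted p = 4.7e-42, Fisher's exact test). When the replicate lists were cut at their own medians too, the shares were 20.1% on X and 27.0% on the arms (adjusted p = 8.2e-07, Fisher's exact test). The cut of the combined list keeps 75.0% of the clusters on X and 43.3% of those on the arms. It thus reaches lower-ranked clusters on X, and neither p-value separates support from this difference in scores. Both p-values are too small, since neighbouring clusters are not independent, and the cut on the combined list only was added after seeing the data.

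X clusters were unevenly spread over these classes, with 75.0% of them above the list's median score and 43.3% on the 3 arms. X clusters found in neither replicate had a median score of 0.478, against 0.407 for such clusters on the arms. Those found in both had 0.598 on X and 0.541 on the arms. When X and the 3 arms as one were each divided by their own scores, X and the arms came closer. The highest class then had 65.3% (61.0 to 69.4%) found in both on X and 74.3% (72.1 to 76.3%) on the arms, and the third class 18.2% and 19.5%. Read depth and input signal on X are not in the lists, and their part in these scores was not tested.

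**Figure D4:**
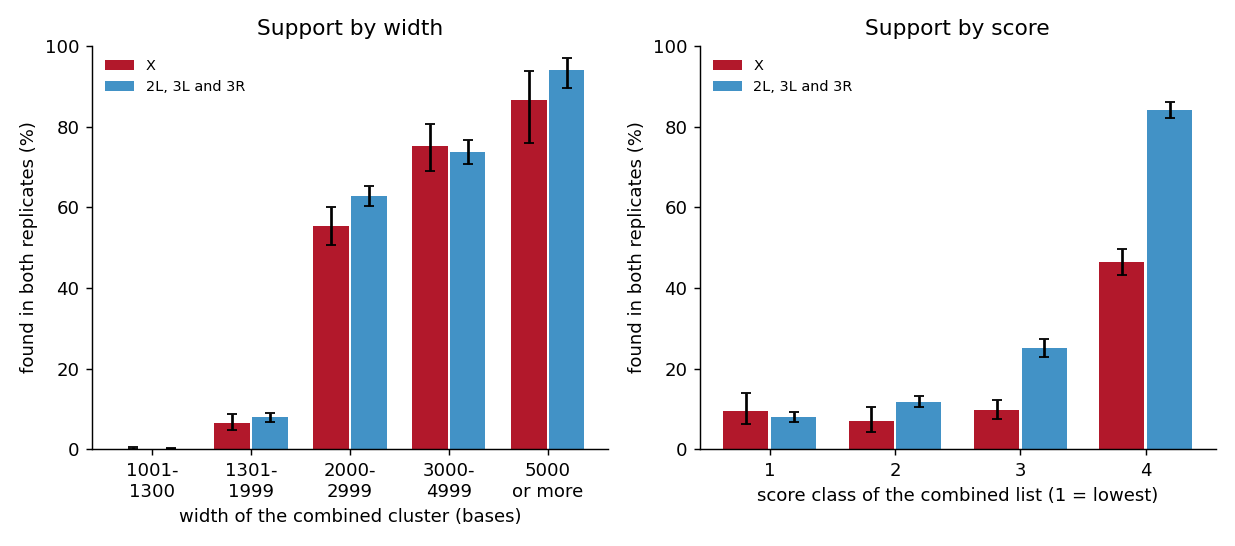
Share of combined clusters found in both replicates on X and on 2L, 3L and 3R together, by width (left) and by score class of the combined list (right), with exact 95% intervals as error bars. By width the bars stand close, with 55.4% on X and 62.8% on the arms at 2000 to 2999 bases. In the highest score class X has 46.4% and the arms 84.2%. The score classes are cut on the whole list, where X clusters score higher. With classes cut on the own scores of X and of the arms, the highest class has 65.3% and 74.3%.

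Support on X was lowest on the centromere side. In the 5 Mb segments up to 20 Mb, between 24.3% and 27.2% of the combined clusters were found in both replicates. In the last segment, from base 20000001, the share was 15.0% (21 of 140, 95% interval 9.53 to 22.0%), and 64.3% were found in neither. Among full 1 Mb bins the share ran from 14.9% (7.4 to 25.7%) at X:20000001-21000000 to 32.1% (22.2 to 43.4%) at X:1-1000000. These 95% intervals overlap, so much of the range over bins may be counting error. Combined clusters in the last segment had a median width of 1488.5 bases, against 1673 to 1788 bases in the segments before it.

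Clusters found in both replicates did not follow each other more often than their share of X. After an X cluster found in both replicates, the next one was also found in both in 23.9% of cases, against 25.1% of all X clusters. On the 3 arms this was 25.7%, against 28.0% of all their clusters. The longest row of neighbouring clusters found in both had 4 members, over 38.7 kb at X:1832397-1871072, and included the wide cluster from 1856543. The longest row found in neither had 10 members, over 81.6 kb at X:9060792-9142343. An X cluster found in neither lay a median of 9845.5 bases from the nearest cluster found in both, and 8344 bases on the arms, and 12.7% lay within 1000 bases of one, against 11.6% on the arms.

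In the replicate lists themselves, about 2 in 3 X clusters were shared. Of the X clusters of replicate 1, 551 of 814 overlapped one of replicate 2, or 67.7% (95% interval 64.4 to 70.9%), against 69.6% over the whole list. In the other direction 547 of 820 did, or 66.7% (63.4 to 69.9%), against 69.3% over the whole list. The mean on X was 67.2% ± 0.695 (SD, n = 2), while 2L, 3L and 3R ran from 68.2 to 70.0% in the replicates. Both X values lay below this range, though the intervals overlap. In replicate 1 the median width of shared X clusters was 2052 bases and that of the others 1561, and in replicate 2 they were 2044 and 1522 bases. Of the X clusters, 9 of replicate 1 (1.11%) and 11 of replicate 2 (1.34%) lay outside the combined list. On the 3 arms the shares were 0.59% and 1.38%.

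Shared X clusters had less exact edges than those on the arms. Over 551 overlapping pairs on X, the starts differed by a median of 156 bases and the ends by 159 bases, against 118 and 123 bases over 1995 pairs on the 3 arms. Their widths had a Spearman's rho of 0.463 on X and 0.536 on the arms, a description across clusters of the same pair of samples. Within the 519 X clusters found in both, the bases common to both replicates made up a median of 69.9% of the combined cluster, against 73.3% on the arms. In 8 of the 519 (1.54%) the clusters of the replicates lay in the same combined cluster without touching each other, against 1.18% on the arms. The score was higher in replicate 1 in 244 of the 551 X pairs, or 44.3%, against 50.2% on the arms. None of these differences was tested.

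The 10 X clusters with the highest combined scores among those found in both replicates had a median width of 2548.5 bases. Over all X clusters found in both, the median width was 2805 bases. The highest was X:5417551-5419897, of 2347 bases, which scored 2.44 in the combined list, 2.74 in replicate 1 and 1.97 in replicate 2, and the replicate clusters covered 100.0% and 95.5% of it. The next, X:14104252-14106565, scored 1.98 in the combined list, 2.04 in replicate 1 and 1.95 in replicate 2. At X:661992-665356 the combined score was 1.74, below the 2.08 of replicate 1 and the 2.12 of replicate 2. This region is 3365 bases wide, and its highest-scoring replicate clusters span 2270 and 2286 bases.

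The next in order had replicate scores closer to each other than the cluster at the first rank. X:12475723-12478291 scored 1.66 in the combined list, 1.62 in replicate 1 and 1.81 in replicate 2 (mean 1.71 ± 0.135, SD, n = 2). X:19046321-19049257 had 1.49 in the combined list, 1.60 in replicate 1 and 1.55 in replicate 2. X:11515042-11517379 followed with 1.47, and the replicates gave it 1.60 and 1.38. For X:5233087-5235614 the combined list gave 1.38 and the replicates 1.54 and 1.33.

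After the first rank, the replicates differed most at X:16251742-16254330 and X:13907760-13911665. At the first of these, the combined list gave 1.37, replicate 1 gave 1.63 and replicate 2 gave 1.13 (mean 1.38 ± 0.352, SD, n = 2). At the second, the combined list gave 1.30 and the replicates 1.64 and 1.28. The last, X:19246181-19248457, had 1.30 in the combined list, 1.20 in replicate 1 and 1.42 in replicate 2. Of these 10 clusters, 7 scored higher in replicate 1. The narrowest had 2277 bases, the median was 2548.5 and the widest had 3906, so none was among the 5 widest of X.

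**Figure D5:**
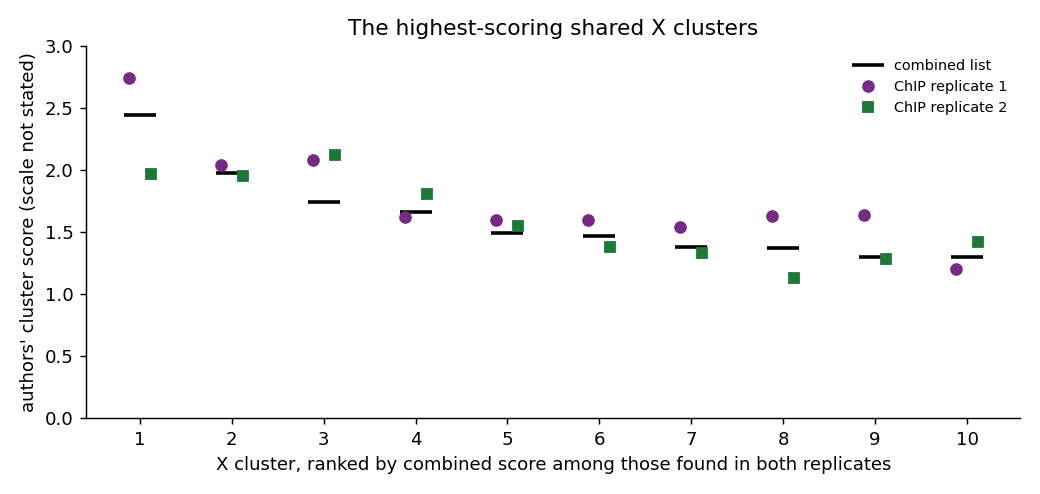
Authors' scores of the 10 X clusters with the highest combined score among those found in both replicates, in the combined list and in each replicate, by rank. The scores fall from 2.44 to 1.30 in the combined list, and the replicates differ most at rank 1, with 2.74 and 1.97.

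Some high combined scores belonged to narrow X clusters that neither replicate list held, named here after their values were seen. The highest score of any X cluster was 3.48, at X:212572-213572, a region of 1001 bases, the narrowest width in the combined list. X:21603481-21604600 had 1.36 with 1120 bases, and X:20178551-20179651 had 1.03 with 1101 bases. Neither replicate list had a cluster at any of these 3 regions. The next X cluster found in neither, by score, was X:17688550-17690342, with 0.952 and a greater width of 1793 bases. On the autosomal arms, clusters found in neither replicate also reached high scores, up to 2.28 on 2L, 2.00 on 3L and 2.63 on 3R.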

How the data were processed

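JHDM1 binding was measured by ChIP-seq in 2 ChIP samples and 2 inputs of wild-type embryos crosslinked with 1.8% formaldehyde, with 15 h of antibody incubation, per the labels' protocols. Per the submitters' processing notes, the aligner was Bowtie 0.12.7. The deposited lists give regions of significant enrichment on FlyBase release 5, per the file headers, each with 1 score from the authors. The sources used here do not give the peak caller, its threshold, how inputs entered, how replicates were combined or the read depth. Per the labels, the inputs were crossed: input 1 served ChIP replicate 2, and input 2 served ChIP replicate 1.

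Clusters on X were taken by sequence name, and coordinates count from 1. Found or shared means an overlap of at least 1 base. A cluster belongs to the bin that holds its midpoint. Intervals of shares are exact Clopper-Pearson at 95% and cover only counting error. Density was compared with two-sided exact binomial tests and support with two-sided Fisher's exact tests, each adjusted over 4 comparisons by the Benjamini-Hochberg method, with a threshold of 0.05. The p-values are too small, since clusters depend on their neighbours. The regions named are the 10 shared X clusters with the highest combined scores, the 5 widest, the 5 longest gaps, and the 3 densest and 3 sparsest full 1 Mb bins. The members and lists were chosen with earlier results of these data known. No genome of release 5 was used here, so regions carry no genes and no sequence. The overlap routine and both tests were tested on simulated data. The simulated clusters were independent, so this check does not cover the dependence between neighbours in the real lists. Alternatives were an overlap of 50% of the smaller cluster, scores above the median of each list, clusters closer than 500 bases joined, arm ends left out, covered bases, means in place of medians, centre distances and each replicate list. A minimum width of 1301 bases, the removal of 3 Mb on the centromere side and a score cut on the combined list only were added after seeing the data. Python 3.11.15, NumPy 2.4.6, pandas 2.3.3, SciPy 1.17.1 and Matplotlib 3.10.9 were used.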

Additional observations from a re-analysis of the deposited data

Results flagged for a closer look

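The heterochromatic scaffold XHet, of 204.1 kb, lies outside the assembled X sequence and enters no comparison above. It held 5 clusters of the combined list, 1 of replicate 1 and 2 of replicate 2, and none of the 5 was found in both replicates. Their combined scores ran from 0.334 to 0.635. They are given because they are a signal in data not used above, and no input list here gives a background count.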

How the results depend on the processing

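The 14 results were recomputed under alternatives, giving 104 values. Of these, 57 kept direction and call or stayed inside the spread (a count of clusters: inside 1.5 times), while 20 moved, 14 lost a call, 4 gained one and 9 reversed. Density ratios of X were 1.05 to 1.06 over 2L, 0.968 to 0.971 over 3L and 0.951 to 0.952 over the 3 arms with 1 replicate list left, turning the last 2 below 1, and 0.865 to 0.870 over 3R. Joined clusters turned 3L to 0.995 and the 3 arms to 0.984. A minimum width of 1301 bases turned the 3 arms to 0.992, and leaving out the centromere side turned 3L to 0.993 and lost 3R at 0.954. Without arm ends 3R was lost at 0.936. Covered bases gave 1.02 for 3L and 1.01 for the 3 arms. None of the ratios named so far for 3L or the 3 arms that had a test passed it. Scores above the median of each list gave 1.56 over 3R, a reversal, and calls at 1.76 over 3L and 1.73 over the 3 arms, and by construction they keep more X clusters, which score higher.

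The support difference in percentage points was -3.89 to -2.95 (2L), -2.83 to -2.64 (3L), -2.87 to -1.80 (3R) and -3.13 to -2.38 (3 arms) with 1 replicate. Joined clusters lost the calls at -2.79 (2L), -2.15 (3R) and -2.43 (3 arms), and the centromere side left out at -3.00, -2.61 and -2.61. Scores above the median of each list gave 3L a call at -5.18, and the same cut on the combined list only at -19.7. Both cuts keep a larger part of the X clusters, which score higher. The share of X clusters found was 36.6 to 37.2% in 1 replicate, 20.1% for scores over each list's median, 30.8% with that cut on the combined list only, 28.9% after joining and 35.7% from 1301 bases. Shared replicate clusters were 62.9% with a 50% overlap, 58.6% for scores over each list's median and 66.7 to 67.7% in the single lists, whose X counts were 814 to 820. The mean X count per replicate list was 566.5 with scores above the median, 774 after joining and 772.5 without arm ends, and the combined X count was 1549, 1751 and 1941.

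The median X width was 1935.5 and 1914 bases in the replicate lists, 1884 with scores above the median, 1835 after joining, and its mean 2038.1. The median gap was 10891 and 10402 bases in the replicate lists, 5041 with scores above the median, 4549.5 after joining and 5554.8 between centres. The cause of these changes was not tested. Without read depth, no detection limit can be given for weak clusters. No paired analysis was possible because no cluster list of an input sample was analysed.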
